A study of Mus musculus with 36 samples.

Results

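The levels and shapes of H2A.Z profiles at the sites bound by CLOCK:BMAL1 (CLK:BMAL1 peaks) were compared between ZT02 and ZT14 in livers of wild-type mice. ZT, zeitgeber time, counts hours after lights on, so ZT02 lies early in the light phase and ZT14 early in the dark phase, 12 h later. The libraries were picked by their labels, as the wild-type (WT) libraries at these times, with earlier results of these data already known. They are 8 of the 30 libraries in the deposited signal table, 4 at ZT02 and 4 at ZT14, from the series numbered 11, 12, 25 and 26. The study as a whole covered 36 samples, taken at 6 times from WT mice and from Bmal1-/- mice (BM), and its title names CLK:BMAL1 as a pioneer-like factor.

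Both groups were livers of adult C57BL/6 mice aged 3 to 6 months, without a genetic change, held in cycles of 12 h light and 12 h dark for 2 weeks or more. Per the labels' protocols, chromatin was crosslinked with formaldehyde and digested with micrococcal nuclease (MNase), nucleosomes were pulled down with an antibody against H2A.Z, and the mononucleosome fraction was sequenced. Series 11 and 12 carry 1 antibody lot number, whereas the 4 libraries of series 25 and 26 carry 4 lot numbers. Of these 4, that of the ZT02 library of series 25 is the number carried by series 11 and 12. In series 25 and 26 the lot numbers count up by 1 from sample to sample in the order of the labels. It is thus uncertain whether they name separate lots. If they do, time and lot cannot be told apart there. Whether the libraries came from separate animals is not stated, so each p-value reflects only how these libraries spread, which may be technical. The signal table holds averages over many peaks and no gene, so neither liver markers nor Bmal1 could be examined.

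H2A.Z is a variant of the histone H2A that replaces it in nucleosomes beside promoters and enhancers, where it is linked to accessible chromatin. CLOCK and BMAL1 form the heterodimeric activator at the core of the circadian clock, and in mouse liver they bind DNA mainly during the day. MNase digests DNA that no nucleosome protects. A profile of H2A.Z fragments around a bound site therefore typically shows a nucleosome on each side and a gap over the site itself.

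Each library was given as 1 averaged profile, in steps of 10 bp, across windows of 3 kb for each of 4 peak sets. The set of all peaks held 3216 peaks, that of transcription start sites (TSS) 583, that of gene bodies 1623 and that of intergenic sites beyond 10 kb of a gene 717. The set of all peaks contains the others, so the sets are not independent of each other. Values are in units scaled by the authors, and the number of reads behind them is unknown.

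In all 8 libraries and in all 4 peak sets, H2A.Z formed a shoulder on each side of the peak centre, and a dip separated the shoulders. Over all peaks the mean profile of the 8 libraries was highest at -200 bp and at 170 bp from the centre and lowest between these at -20 bp. At the -200 bp position the signal was 34.5 ± 5.05 at ZT02 and 34.6 ± 5.39 at ZT14 (SD, n = 4). At the lowest position it was 20.8 ± 2.26 at ZT02 and 22.99 ± 4.05 at ZT14 (SD, n = 4). The shoulders thus had nearly equal means at both times. The mean of the dip was higher at ZT14, and the ranges overlapped at both positions. Both patterns rested on series 26, where the signal rose from 31.2 to 41.8 at -200 bp and from 19.1 to 28.4 at -20 bp. In series 11, 12 and 25 it fell at -200 bp, from 33.8, 31.1 and 41.8 to 31.6, 29.5 and 35.6. At -20 bp these series went from 19.9, 20.1 and 24.1 to 20.7, 19.2 and 23.6.

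**Figure D1:**
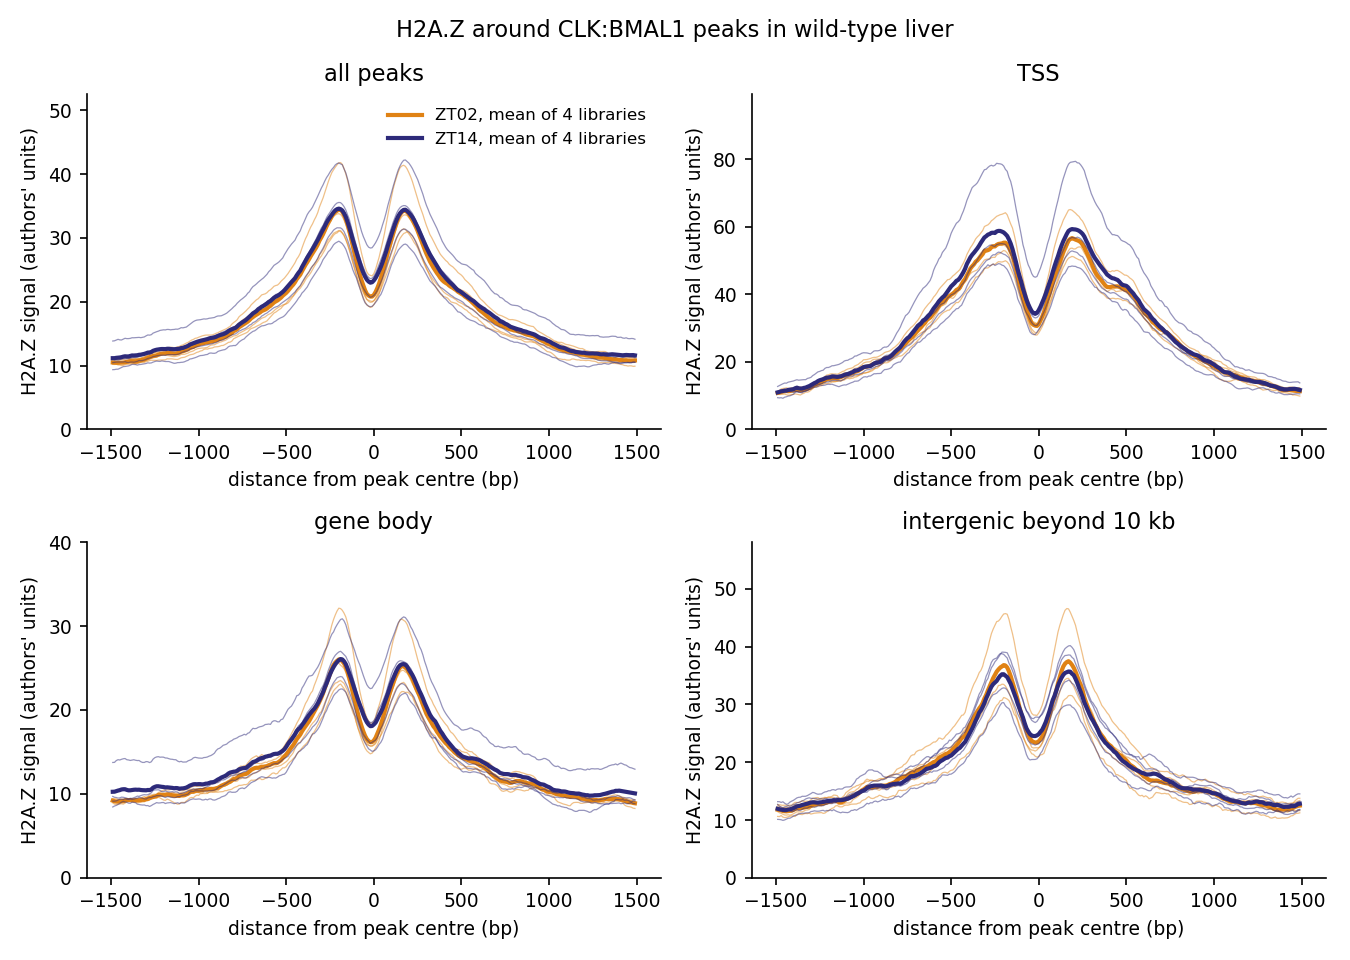
Mean H2A.Z signal (authors' units, vertical axis) by distance from the peak centre in bp (horizontal axis) in 4 peak sets; thin lines are single WT libraries, thick lines the mean of 4 libraries at ZT02 (orange) or ZT14 (blue). Both times show a pair of shoulders and a dip, and 1 ZT14 library, that of series 26, stands above the others at TSS.

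The level of H2A.Z did not differ between the times beyond the spread of the libraries. The window level is the mean signal over the 3 kb window. Over all peaks it was 18.8, 16.96, 21.01 and 17.4 at ZT02 and 17.6, 16.2, 19.4 and 23.6 at ZT14, in series 11, 12, 25 and 26. The ZT14 library of series 26 was the highest of the 8, and the other 3 ZT14 libraries lay below the ZT02 libraries of their own series. The means were 18.5 ± 1.83 and 19.2 ± 3.18 (SD, n = 4), and the log2 difference of ZT14 minus ZT02 was 0.041 (SE 0.14, exact permutation p = 0.771).

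The same order within series was found at each class of site. At TSS peaks, where promoters lie, the window level was 29.4 ± 2.47 at ZT02 and 30.7 ± 6.34 at ZT14 (SD, n = 4). At gene body peaks it was 13.9 ± 1.205 and 14.7 ± 2.59, and at intergenic peaks beyond 10 kb it was 19.6 ± 2.59 and 19.5 ± 2.34 (SD, n = 4). In each of these sets series 11, 12 and 25 were lower at ZT14 and series 26 was higher. The exact permutation p for the log2 window level ran from 0.686 to 0.914 over the 4 sets, and the adjusted p was 0.948 in each.

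The sign of the mean difference in level rested on single libraries. In series 26 the log2 window level was higher at ZT14 by 0.44 over all peaks, 0.56 at TSS, 0.47 at gene bodies and 0.23 beyond 10 kb. Without the ZT14 library of series 26 the log2 difference was -0.062 over all peaks, -0.085 at TSS and -0.047 at gene bodies. In these 3 sets no other single library turned the sign. Beyond 10 kb, where the difference was -0.0078, 4 of the 8 omissions turned it. It was 0.0086 without the ZT02 library of series 11, 0.014 without the ZT14 library of series 11, 0.065 without the ZT14 library of series 12 and 0.070 without the ZT02 library of series 25. By set of samples, as the source names divide them, the all-peak difference was -0.078 in series 11 and 12 and 0.16 in series 25 and 26. The difference was not tested within either set, which holds 2 libraries a group.

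**Figure D2:**
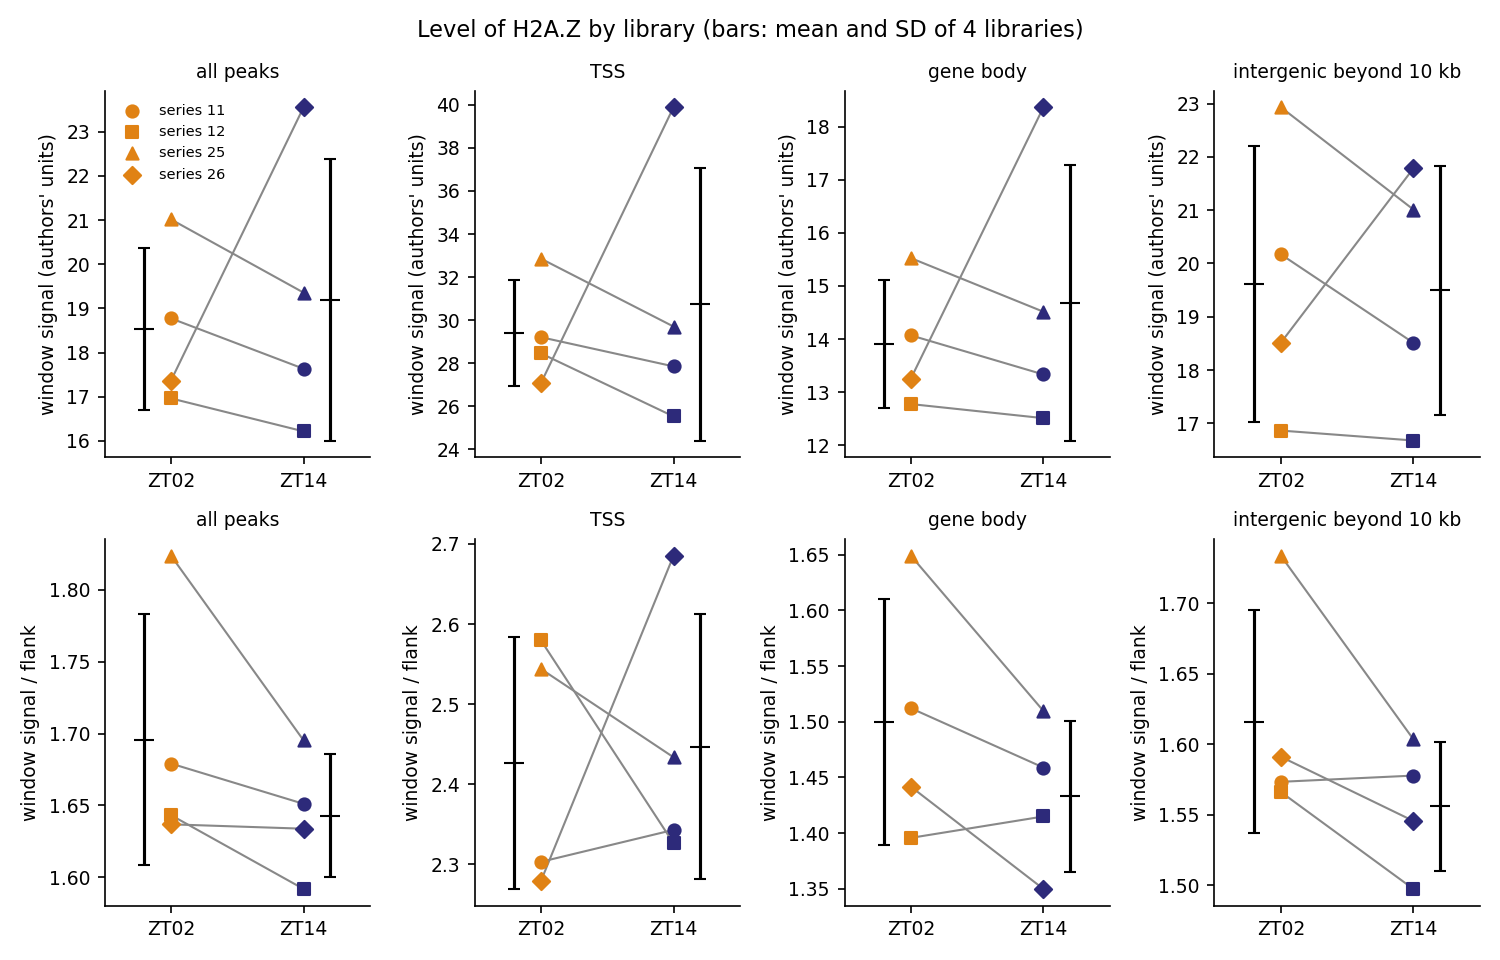
Window signal in authors' units (top row) and window signal divided by the flank of the same profile (bottom row) at ZT02 and ZT14 in 4 peak sets; points are libraries, lines join libraries of 1 series, and bars give the mean and SD of 4 libraries, on vertical axes that do not start at 0. In the top row the line of series 26 goes up in every set while the other 3 go down.

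The signal far from the bound site gives a scale within each library. The flank is the mean signal of the 25 positions nearest each end of the window. At gene body peaks the flank was 9.30, 9.15, 9.41 and 9.19 at ZT02 and 9.14, 8.84, 9.61 and 13.6 at ZT14, in the order of series given above. At these peaks the ZT14 library of series 26 thus stood high outside the bound sites as well, while the other 7 lay close together. Beyond 10 kb it stood out less, with a flank of 14.1 against 10.8 to 13.2 in the other 7. The log2 difference of the flank was 0.13 at gene bodies (SE 0.14, exact permutation p = 0.686), and over the 4 sets it ran from 0.035 to 0.13.

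After each profile was divided by its own flank, the window level also did not differ beyond the spread. Over all peaks the window level over flank was 1.696 ± 0.0873 at ZT02 and 1.643 ± 0.0428 at ZT14 (SD, n = 4). All 4 series were lower at ZT14, by log2 differences between -0.105 and -0.0027, and the groups overlapped (log2 difference -0.045, SE 0.041, exact permutation p = 0.429). At gene bodies the means were 1.4997 and 1.433, and beyond 10 kb they were 1.62 and 1.56, each with 3 of 4 series lower at ZT14. At TSS peaks they were 2.43 and 2.45, with 2 of 4 series higher at ZT14. The log2 difference at TSS was 0.012, and it was -0.033 without the ZT14 library of series 26, -0.017 without the ZT02 library of series 26 and -0.012 without the ZT02 library of series 11. Without the ZT02 library of series 25 the log2 differences in the other sets were smaller, at -0.0091 over all peaks, -0.017 at gene bodies and -0.020 beyond 10 kb, in place of -0.045, -0.064 and -0.054.

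The shoulders, where the nucleosomes beside the bound site lie, were measured from 150 to 230 bp on both sides. Enrichment, the shoulder divided by the flank, was 3.08 at ZT02 and 2.91 at ZT14 over all peaks, 4.54 and 4.60 at TSS, 2.70 and 2.48 at gene bodies, and 2.97 and 2.76 beyond 10 kb. Enrichment was lower at ZT14 in 4 of 4 series over all peaks and beyond 10 kb. The difference beyond 10 kb had the lowest p of this measure (log2 difference -0.10, SE 0.070, exact permutation p = 0.2), and the ranges of the groups overlapped there. The ZT02 library of series 25 had the highest enrichment of the ZT02 libraries in these sets, and without it the log2 difference was -0.012 over all peaks, in place of -0.079, and -0.037 beyond 10 kb. At gene bodies it was -0.026, in place of -0.12.

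The shoulders also stood at similar places at both times. The distance between the highest position on each side over all peaks was 375 bp ± 12.9 at ZT02 and 377.5 bp ± 5 at ZT14 (SD, n = 4, exact permutation p = 1). At TSS peaks it was 410 bp ± 42.4 and 430 bp ± 14.1 (exact permutation p = 0.457, n = 4). At gene bodies it was 362.5 bp ± 12.6 and 350 bp ± 8.16 (exact permutation p = 0.286, n = 4). Beyond 10 kb it was 367.5 bp ± 15 and 380 bp ± 14.1 (exact permutation p = 0.371, n = 4). Spacing was read to the nearest 10 bp, and the ranges of the groups overlapped in every set. The log2 ratio of the left shoulder to the right differed by -0.011 to 0.003 between the times (exact permutation p from 0.714 to 0.971).

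The depth of the dip was the measure in which the times stood furthest apart. Centre fill is the signal within 30 bp of the centre above the flank, divided by the shoulder above the flank. It is 0 where the gap reaches down to the flank and 1 where there is no gap, and the scaling of a library cancels from it. Over all peaks centre fill was 0.427, 0.504, 0.463 and 0.462 at ZT02 and 0.522, 0.517, 0.555 and 0.547 at ZT14, in series 11, 12, 25 and 26. Each ZT14 library lay above each ZT02 library, so the gap was shallower relative to the shoulders at ZT14. The means were 0.464 ± 0.0315 and 0.535 ± 0.0185 (SD, n = 4), a difference of 0.0710 (SE 0.0183).

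The groups also did not overlap at TSS peaks, where centre fill was 0.434, 0.496, 0.461 and 0.457 at ZT02 and 0.509, 0.513, 0.519 and 0.517 at ZT14. The mean was 0.462 ± 0.0256 at ZT02 and 0.514 ± 0.00421 at ZT14 (SD, n = 4 each), and the range of the ZT14 libraries was the narrower. Beyond 10 kb centre fill was 0.428, 0.523, 0.5005 and 0.521 at ZT02 and 0.556, 0.554, 0.587 and 0.570 at ZT14, again without overlap, with a difference of 0.0736 (SE 0.0236). At gene bodies it was 0.448, 0.525, 0.458 and 0.452 at ZT02 and 0.526, 0.503, 0.579 and 0.569 at ZT14. There the groups overlapped, and series 12 was lower at ZT14 by a difference of -0.022 while the other 3 series were higher.

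The exact permutation p was 0.0286 over all peaks, at TSS and beyond 10 kb, which is the smallest that 4 libraries against 4 can give. At gene bodies it was 0.0571. Adjusted over the 28 single-value tests (7 measures in 4 peak sets), these became 0.267 and 0.4 (exact permutation, Benjamini-Hochberg). None of the 28 thus passed the threshold of 0.05, and 3 lay under it before adjustment. With so few libraries, a test could pass only if many of the 28 reached the smallest p. Centre fill, like the other measures, was chosen with earlier results of these data known. Within series 11 and 12 the difference in centre fill was 0.0538 over all peaks, 0.0459 at TSS, 0.0283 at gene bodies and 0.0795 beyond 10 kb. Within series 25 and 26 it was 0.0883, 0.0590, 0.119 and 0.0676 in the same order of sets, so ZT14 was higher in both sets of samples. Except at gene bodies, this had to follow, because the groups did not overlap.

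**Figure D3:**
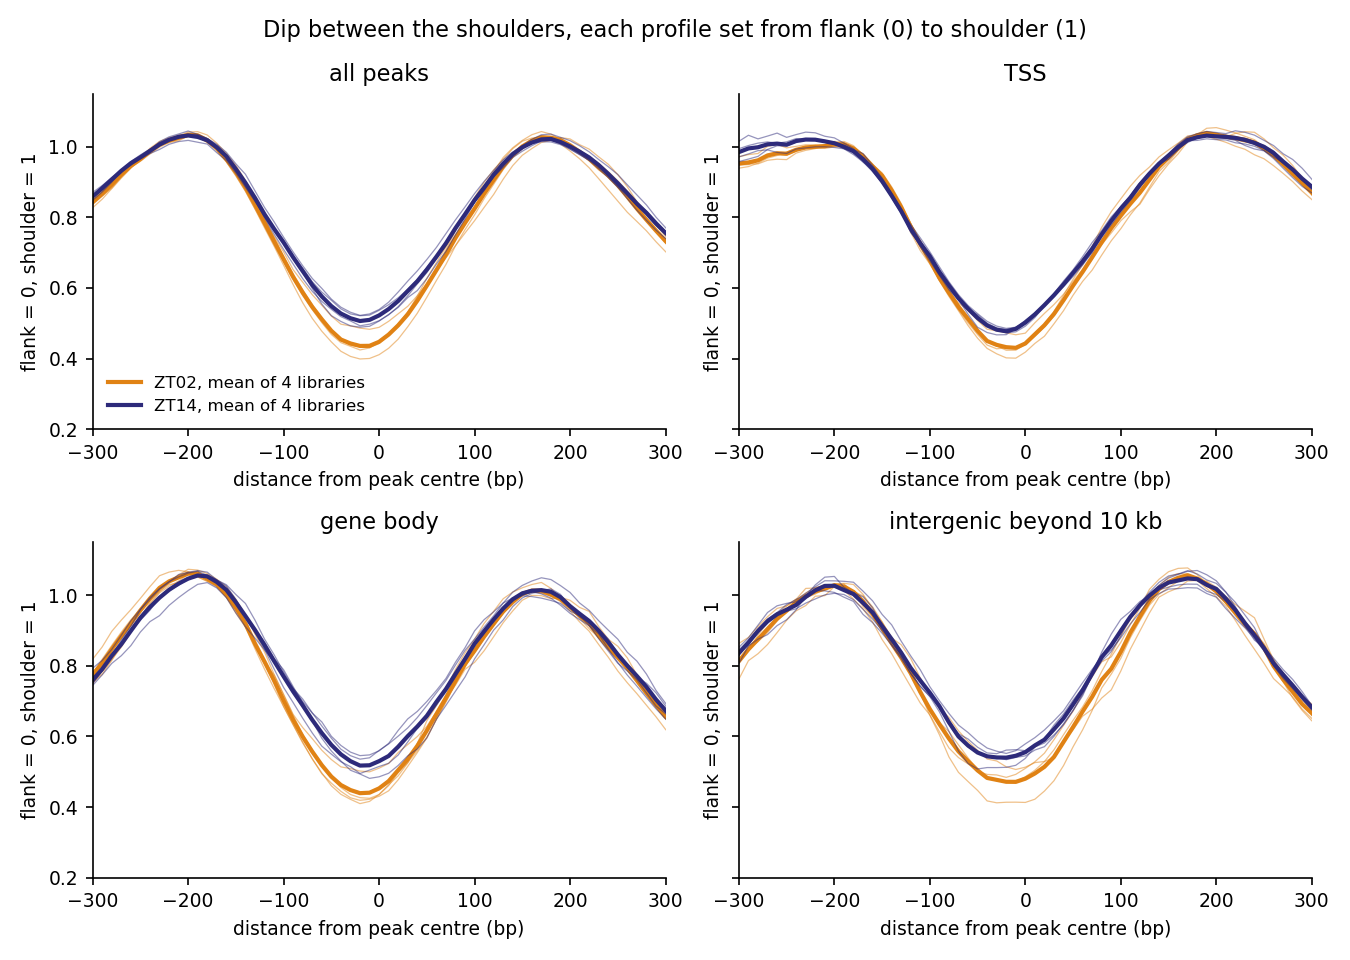
Each profile set from its flank (0) to its shoulder (1), on the vertical axis, within 300 bp of the peak centre (horizontal axis, bp) in 4 peak sets; thin lines are libraries and thick lines means of 4. At the centre of the dip the ZT14 mean lies above the ZT02 mean in every set, 0.522 against 0.448 over all peaks at 0 bp.

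The ratio in centre fill could move with the centre, the shoulder or the flank, and these were measured separately. The signal at the centre, over all peaks, was 20.5, 20.5, 25 and 19.8 at ZT02 and 21.3, 19.8, 24.4 and 29.1 at ZT14. Divided by the flank, the centre was 1.97 ± 0.1502 at ZT02 and 2.02 ± 0.0825 at ZT14 (SD, n = 4, log2 difference 0.043, exact permutation p = 0.514). The centre over flank was higher at ZT14 in 2 of 4 series, and enrichment of the shoulder, as given above, was lower in 4 of 4. At TSS the log2 difference of the centre over flank was 0.11 (SE 0.094, exact permutation p = 0.257) and that of the shoulder was 0.019 (exact permutation p = 0.886). In no set did the centre or the shoulder alone separate the 2 times.

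Position by position, no difference passed the test. All 1196 positions of the 4 sets were tested together with limma on log2 signal. As deposited, 0 positions were called in either direction (0%), 0 had an unadjusted limma p under 0.05, and at 0 positions did the groups not overlap. The lowest adjusted p from limma was 0.999. The mean was higher at ZT14 at 100% of positions over all peaks, 97.3% at gene bodies, 82.3% at TSS and 51.8% beyond 10 kb, but neighbouring positions are not independent, and the ZT14 library of series 26 was high across the window. The position with the largest difference was in the dip over all peaks (-10 bp, log2 difference 0.14) and at TSS (0 bp, 0.16). In the other sets it lay outside the dip. At gene bodies it was -1430 bp, in the flank (log2 difference 0.18), and beyond 10 kb it was 660 bp (0.099).

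Divided by the flank, 0 positions were called in either direction (0%, limma). Of the 1196 positions, 31 had an unadjusted limma p under 0.05, all lower at ZT14. This is a smaller share than the 0.05 that such a threshold passes by chance. By chance, 4 libraries against 4 fail to overlap at a share of 0.0286, both directions together. The groups did not overlap at 23 positions (1.92%), below that share, all lower at ZT14. Of these, 10 belonged to peaks beyond 10 kb, from -800 to -770 bp and from -460 to -410 bp, and 9 to gene bodies, from 950 to 1020 bp and at 1280 bp. At -790 bp of peaks beyond 10 kb the signal over flank was 1.42, 1.41, 1.44 and 1.41 at ZT02 and 1.35, 1.25, 1.35 and 1.24 at ZT14. This was the largest difference toward lower values in that set (limma, log2 difference -0.13, adjusted p = 0.723). It lies on the outer slope of the profile, away from the dip.

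With each profile set from flank to shoulder, 0 positions were again called in either direction (0%, limma on these values without log2). Of the 1196 positions, 96 were higher and 32 lower at an unadjusted limma p under 0.05, a threshold that passes a share of 0.05 by chance. This scale was chosen after the data were seen. It fixes the mean of the flank at 0 and that of the shoulder at 1 in every profile. Differences therefore have most room away from both, such as in the dip, so their place there is not a finding separate from centre fill. By chance, 4 libraries against 4 fail to overlap at a share of 0.0286, both directions together, and neighbouring positions are not independent. The groups did not overlap at 46 positions with higher values at ZT14 (3.85%) and at 12 with lower values (1%). Over all peaks the 17 such higher positions ran from -120 to 40 bp without a break, and at gene bodies the 9 ran from -120 to -40 bp. At TSS they were -70 bp and -10 to 50 bp, so in each of these 3 sets they lay within the dip. Beyond 10 kb, 10 of 12 lay within 200 bp of the centre. The lowest adjusted p from limma was 0.0621. Without the ZT02 library of series 12, 39 positions were called higher, and without the ZT14 library of series 11, 3 were, so the count rests on single libraries.

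No difference between the classes of peak in the ZT14 minus ZT02 contrast passed the test. The 3 classes were set against each other within each library in window level, flank-scaled window level and centre fill, and the lowest exact permutation p of the 9 tests was 0.229 (adjusted p = 0.771). For centre fill, TSS minus gene body was -0.00875 at ZT02 and -0.0302 at ZT14 (exact permutation p = 0.314, n = 4). TSS minus gene body in the log2 window level over flank was 0.886 in the ZT02 library of series 12 and 0.992 in the ZT14 library of series 26, against 0.607 to 0.717 in the other 6. These are the libraries in which TSS peaks stood highest relative to gene bodies, 1 at each time.

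Across the 6 times, ZT14 lay among the times with the shallowest gap. Mean centre fill over all peaks was 0.547 at ZT18, 0.535 at ZT14, 0.494 at ZT22, 0.464 at ZT02, 0.431 at ZT10 and 0.430 at ZT06. The ranges of ZT14 (0.517 to 0.555) and ZT18 (0.506 to 0.593) overlapped, as did those of ZT02 (0.427 to 0.504) and ZT06 (0.395 to 0.452). At TSS peaks ZT14 had the highest mean of the 6 times, 0.514, followed by ZT18 with 0.508. The difference over 12 h was 0.0710 from ZT02 to ZT14, 0.117 from ZT06 to ZT18 and 0.0628 from ZT10 to ZT22. Set against ZT02 to ZT14, the exact permutation p of centre fill over all peaks was 0.229 for ZT06 to ZT18 and 0.914 for ZT10 to ZT22. Such contrasts were compared in 24 tests of window level, flank-scaled window level and centre fill. The lowest exact permutation p was 0.0857 (adjusted p = 0.514), for flank-scaled window level, so no difference between contrasts was detectable with 4 series. The test shuffled the within-series differences as separate values, although both contrasts share the same 4 series.

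**Figure D4:**
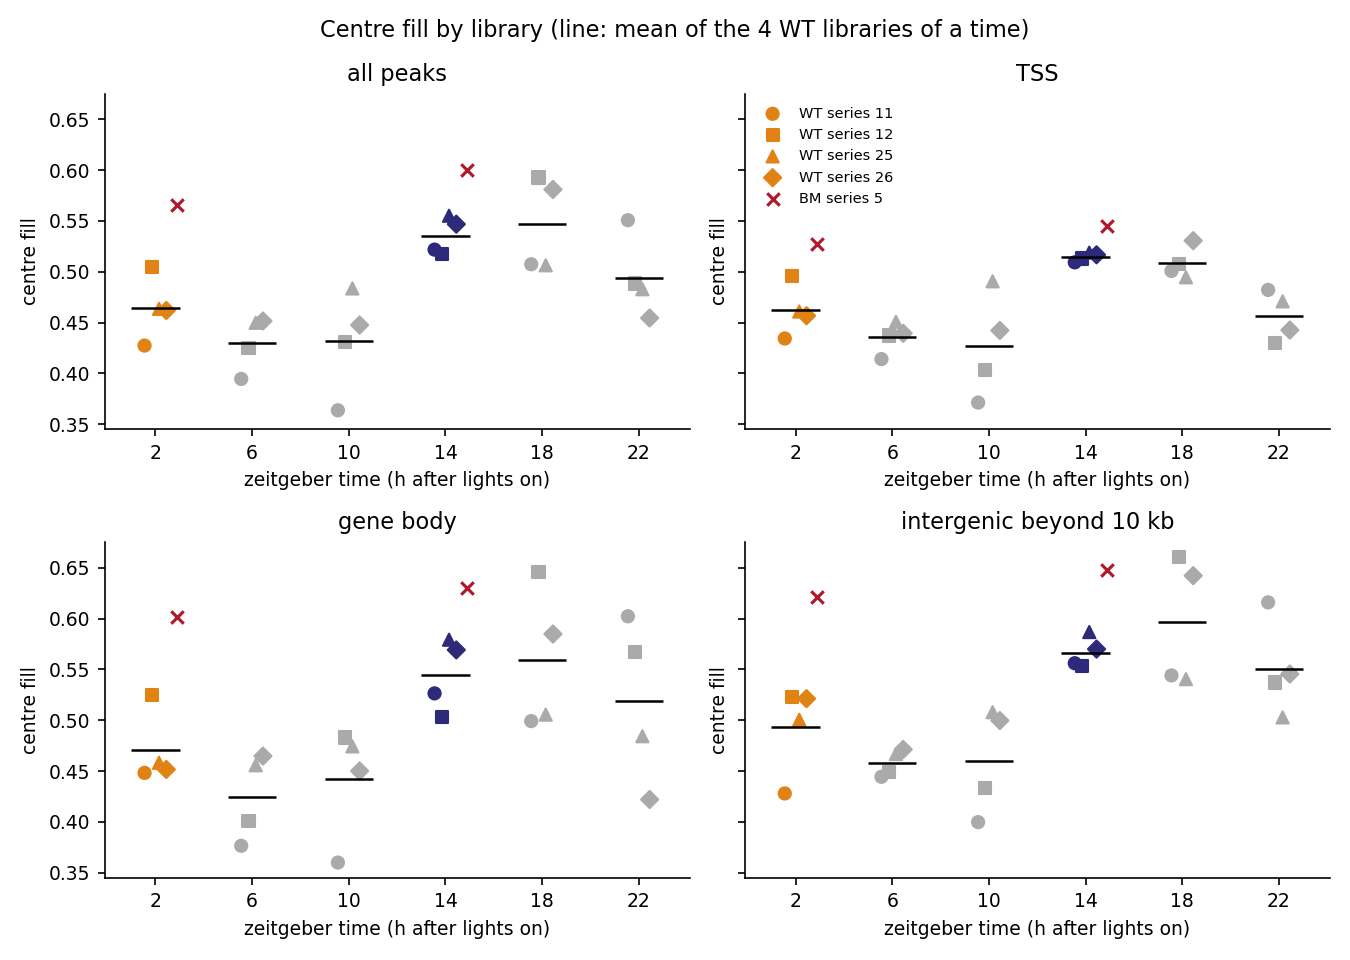
Centre fill (vertical axis, no unit) of every library by zeitgeber time (h after lights on) in 4 peak sets; orange and blue points are the WT libraries at ZT02 and ZT14, grey points the WT libraries at the other times, lines the mean of 4 WT libraries, and crosses the BM library of series 5, the 1 BM library used at ZT02 and at ZT14. The 4 ZT14 points lie above the 4 ZT02 points in each set except gene bodies.

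For the BM mice, which lack BMAL1, the signal table holds 1 library at each of these times, from series 5, so their values have no replicate check. The labels list a further BM series, number 8, whose samples were not analysed here. In BM series 5 centre fill over all peaks was 0.566 at ZT02 and 0.6001 at ZT14, a difference of 0.0339 against 0.0710 in WT. Both BM values lay above the 8 WT values. At TSS the BM values were 0.527 and 0.545, at gene bodies 0.602 and 0.630, and beyond 10 kb 0.621 and 0.648. Each was higher than all 8 WT libraries of the same set. This order did not hold at all times. Over all peaks the BM value lay above the WT range at ZT06, ZT10 and ZT22, but at ZT18 it was 0.570, within 0.506 to 0.593. At TSS it was 0.437 at ZT06 and 0.374 at ZT10, within the WT ranges of 0.414 to 0.451 and 0.371 to 0.491. At TSS at ZT18 it was 0.489, below the WT range of 0.495 to 0.531. Whether the difference between ZT02 and ZT14 depends on genotype was not tested.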

How the data were processed

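H2A.Z was measured by MNase ChIP-seq in WT mouse liver, with 4 libraries at ZT02 and 4 at ZT14. The deposited table holds signal (coverage) that the authors averaged over the peaks of a set, 1 profile per library and set. The submitters' processing notes name CASAVA 1.7, Bowtie and the build mm9. For the Bowtie version, the normalization and the peak caller, details are not given in the sources used here. In the authors' deposited list there are 3217 peaks, with coordinates, a location class and other columns, against 3216 in the row names of the signal table. The step of 10 bp is an inference from the width of the window and the number of columns.

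Levels were analysed as log2 signal with no pseudocount. Centre fill and the profiles set from flank to shoulder were analysed without log2. Single values were tested by an exact permutation test, two-sided, over all 70 regroupings, with Benjamini-Hochberg adjustment over each family of tests. Positions were tested with limma 3.58.1 in R 4.3.3, and the other steps used Python 3.11.15 and numpy 2.4.6. Both procedures were tested on simulated data. The positions named are the outermost, the highest on each side of the centre, the lowest between them, and those with the largest difference each way; runs of positions without overlap were added after their values were seen. The libraries, measures and peak sets were chosen with earlier results of these data known. Alternatives were leaving out each library, the replicate block, each set of samples alone, other flank, shoulder and centre widths, the median, a pseudocount, a minimum signal and all WT libraries in 1 fit. No 2 libraries held identical profiles. The depth of the libraries is unknown, and no interval for counting error is given. The other samples and times enter only as context, and no gene or sequence was assigned to a profile.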

Additional observations from a re-analysis of the deposited data

Results flagged for a closer look

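Of 56 groups of 4 libraries (7 measures, 4 peak sets and 2 times), 4 held a library far from the other 3, where chance flags about 1 in 20 groups, or 2.8 here. The ZT02 library of series 25 gave 3 of them. Its log2 window level over flank at peaks beyond 10 kb was 0.794, against 0.647 to 0.670 in the other ZT02 libraries. Its log2 enrichment was 1.82 over all peaks, against 1.53 to 1.56, and 1.76 beyond 10 kb, against 1.497 to 1.512. The fourth was the ZT02 library of series 12, whose centre fill at gene bodies was 0.525, against 0.448 to 0.458. It lay above the ZT14 library of series 12, with 0.503, and below the other 3 ZT14 libraries.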

How the results depend on the processing

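No single-value test passed its threshold under any alternative run (lowest adjusted exact permutation p for centre fill = 0.267). Some runs could not pass: the smallest exact p was 0.125 with the replicate block and 0.1 with 3 libraries against 3. Centre fill was higher at ZT14 in all 60 recomputed values, from 0.0283 to 0.119, but this sign was largely fixed in advance. In 3 of the 4 peak sets the groups did not overlap, so leaving out libraries could not turn it. With the replicate block the differences equal the main ones by construction. Only other flank, shoulder and centre widths, or omissions at gene bodies, could have turned the sign. Within a set of samples, without a test, centre fill at gene bodies moved to 0.0283 in the first set and 0.119 in the second, and shoulder asymmetry at TSS to 0.0219 and -0.0163.

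The signs of several small, uncalled differences (ZT14 minus ZT02) turned; the cause was not tested. With a flank of 10 positions a side, centre over flank at gene bodies was -0.0164. With the median over the window, the window level beyond 10 kb was 0.0207, and with each library's scale factor, recovered from the values, undone it was 0.0202. With the flank of the peaks beyond 10 kb for every set, the flank-scaled window level at gene bodies was 0.0204. Without series 26 at both times, an alternative chosen after the data were seen, the window level was -0.0913 over all peaks, -0.124 at TSS and -0.0684 at gene bodies. The flank level was then -0.0328, -0.0609 and -0.0153 in these sets and -0.0309 beyond 10 kb. At TSS the flank-scaled window level was then -0.0628 and enrichment -0.0796, and asymmetry was 0.00107 at gene bodies and 0.00555 beyond 10 kb.

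Leaving out each library in turn, the window level ran from -0.0618 to 0.118 over all peaks, from -0.0853 to 0.129 at TSS, from -0.0466 to 0.138 at gene bodies and from -0.0775 to 0.0703 beyond 10 kb. In the same order of sets the flank level ran from -0.0199 to 0.147, from -0.0519 to 0.0939, from -0.0115 to 0.196 and from -0.0131 to 0.1001. The 4 lowest flank levels, and the lowest window levels of the first 3 sets, came without the ZT14 library of series 26. Asymmetry ran from -0.00099 to 0.0112, from -0.0041 to 0.0115, from -0.0207 to 0.00715 and from -0.0144 to 0.0112. At TSS the flank-scaled window level ran from -0.0334 to 0.0422 and enrichment from -0.0423 to 0.0609. In the other sets neither changed sign, and the value nearest 0 came without the ZT02 library of series 25. Over all peaks, at gene bodies and beyond 10 kb the first ran from -0.0611 to -0.0091, from -0.0972 to -0.0170 and from -0.0685 to -0.0196, and enrichment from -0.109 to -0.0125, from -0.166 to -0.0255 and from -0.123 to -0.0366. Centre over flank ran from -0.0378 to 0.0685 at gene bodies and from -0.0245 to 0.0750 beyond 10 kb. The count of positions called higher from flank to shoulder ran from 0 to 39.

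Between peak sets, leaving out a library gave a window level for TSS minus gene body from -0.0386 to 0.00572 and for TSS minus beyond 10 kb from -0.0214 to 0.110. Gene body minus beyond 10 kb ran from -0.0286 to 0.0156 in flank-scaled window level and from -0.0155 to 0.0145 in centre fill. Against the contrast of ZT18 minus ZT06, leaving out a series gave window levels from -0.0211 to 0.251 over all peaks, from -0.0278 to 0.241 at gene bodies and from -0.0326 to 0.193 beyond 10 kb. At gene bodies it gave a flank-scaled window level from -0.0081 to 0.0402 and a centre fill from -0.105 to 0.0081. Against ZT22 minus ZT10, centre fill ran from -0.0198 to 0.0420 over all peaks, from -0.0531 to 0.0503 at gene bodies and from -0.0528 to 0.00709 beyond 10 kb.

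Whether the series numbers pair the libraries was unclear. The correlation of same-numbered deviations ran from -0.208 to 0.633, was over 0.1 in 2 of 4 series, and 2 of 4 correlated best with their own number. With the replicate block, 0 positions were called on any scale, and the lowest exact p of a single value was 0.125, the smallest that permuting 4 signs can give, so the block could not pass the threshold. Depth is unknown, and 4 libraries a group limit each single test to a p of 0.0286, before adjustment.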
